A study of Mus musculus with 24 samples.

Results

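The genes of the epidermal growth factor receptor (EGFR) family, their ligands and a feedback inhibitor were followed across 8 lines of mouse astrocytes that had lost p53 or carried a mutant p53. The 9 genes were chosen as a pathway known to drive glioma and were looked up in the deposited gene counts by Ensembl identifier, with symbols from GENCODE M21. All 9 were found among the 14427 genes counted, and all 9 entered every test. They are the receptors Egfr, Erbb2 and Erbb3, the ligands Hbegf, Areg, Ereg, Tgfa and Nrg1, and the inhibitor Errfi1.

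EGFR and its relatives are receptor tyrosine kinases that pair up at the cell surface when a ligand binds and then signal through RAS-ERK and PI3K-AKT. ErbB2 has no ligand of its own and serves as a partner, and ErbB3 has little kinase activity and depends on its partners. The ligands are made as membrane-anchored precursors that metalloproteases of the ADAM family release. Errfi1 (also called Mig6) binds the active receptor kinase and shuts it down, and its transcription is induced by the signaling it restrains. In glia EGFR signaling promotes growth, and EGFR amplification is among the hallmark lesions of glioblastoma.

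The lines were made from primary cortical astrocytes of C57BL/6 pups at postnatal day 1. All lines came from pups with 1 floxed and 1 deleted Trp53 allele (Trp53 f/-), and several pups of a sex were pooled, which gave 1 male and 1 female culture. To make the p53 R172H, Y202C and Y217C lines, a retrovirus carrying the mutant Trp53 with an IRES-eGFP cassette was introduced, eGFP-positive cells were sorted, and the floxed allele was then removed with a Cre lentivirus under puromycin selection. The p53 KO lines received the Cre lentivirus and puromycin but neither the retrovirus nor the eGFP sort, so that treatment and the mutant protein cannot be told apart. Cells were grown in DMEM/F12 with 10% FBS and used at passages 10 to 15. Each line was sequenced in 3 replicates, described for the in vitro work as separate thaws and platings. P-values therefore measure the spread between platings of a line and not between animals, and sex and culture cannot be told apart.

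Total counts ranged from 52787288 to 136503809 per library. Levels are given as CPM, counts scaled to each library's total with TMM factors. Trp53 had a mean of 48.9 to 50.9 CPM in the KO lines and of 593 in female p53 Y202C to 3709 CPM in female p53 Y217C, so the amount of mutant transcript was unequal. All 9 astrocyte markers were listed and summed to 200.5 to 640 CPM per line, with Sox9 at 80.0 to 183 CPM. Gfap, the classic astrocyte filament, stood at 0.26 CPM or less in 7 lines and at 6.93 CPM in male p53 Y217C. The 4 fibroblast or pericyte markers summed to 3626 to 22338 CPM, nearly all from Col1a1. Of the other marker lists, the oligodendrocyte and Schwann cell list had 4 of 8 genes listed (65.6 to 383 CPM summed, with Olig1, Olig2 and Sox10 among those absent), the microglial list 2 of 5 (17.5 to 108 CPM, without Cx3cr1, P2ry12 and Aif1), the endothelial list 1 of 3 (0.30 to 33.3 CPM, without Pecam1 and Cldn5), the neuronal list 1 of 3 (0.036 to 1.44 CPM, without Rbfox3 and Snap25) and the epithelial list 1 of 4 (0.050 to 2.55 CPM, without Epcam, Krt8 and Krt18). In bulk RNA, fewer cells of a type and less RNA per cell cannot be told apart.

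Promoter sequence is shown so that starts can be compared. Of the genes with a window read here, the 4 that differed by more than a factor of 2 from KO in the results below are shown. Windows were taken from RefSeq on GRCm38.p6 and were read for 5 of the 9 genes (Egfr, Erbb2, Areg, Tgfa and Errfi1). Only the 250 bases before the start were read. Both strands were searched for the cAMP response element TGACGTCA, the AP-1 site TGANTCA, the TATA box TATAAA and the GC box GGGCGG, and matches of different motifs did not overlap in the windows shown. Capitals mark a cAMP response element or a TATA box on either strand, and no AP-1 letters were found in these windows. All run 5' to 3' on the + strand.
Areg, chr5:91139349-91139598: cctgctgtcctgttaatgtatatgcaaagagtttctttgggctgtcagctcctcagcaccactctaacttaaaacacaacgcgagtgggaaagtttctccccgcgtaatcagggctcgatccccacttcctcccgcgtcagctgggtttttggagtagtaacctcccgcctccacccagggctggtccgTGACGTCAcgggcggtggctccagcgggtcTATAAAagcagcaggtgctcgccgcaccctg
Errfi1, downstream start, chr4:150854820-150855069: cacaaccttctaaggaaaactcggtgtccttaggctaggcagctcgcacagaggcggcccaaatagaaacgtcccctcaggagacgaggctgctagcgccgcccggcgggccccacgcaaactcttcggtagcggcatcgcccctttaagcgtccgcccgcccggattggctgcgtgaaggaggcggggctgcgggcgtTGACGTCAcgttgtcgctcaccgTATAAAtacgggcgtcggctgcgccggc
Egfr, chr11:16751953-16752202: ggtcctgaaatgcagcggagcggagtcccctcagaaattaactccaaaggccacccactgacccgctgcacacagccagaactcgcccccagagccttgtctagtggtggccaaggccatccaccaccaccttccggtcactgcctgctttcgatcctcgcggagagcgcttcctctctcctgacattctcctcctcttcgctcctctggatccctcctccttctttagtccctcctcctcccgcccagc
Tgfa, chr6:86194972-86195221: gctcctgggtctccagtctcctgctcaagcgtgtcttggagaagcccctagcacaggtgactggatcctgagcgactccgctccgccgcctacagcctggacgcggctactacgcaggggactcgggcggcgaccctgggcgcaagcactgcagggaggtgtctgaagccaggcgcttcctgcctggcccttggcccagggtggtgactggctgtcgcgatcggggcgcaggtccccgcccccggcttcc

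The Areg and Errfi1 windows each held a cAMP response element followed by a TATA box. In Areg they began 61 and 31 bases before the start, and in Errfi1 51 and 28 bases before it. Among all 32851 RefSeq windows of that length, 1.55% held the cAMP response element, 12.4% the TATA box, 6.75% the AP-1 site and 32.7% the GC box. The Egfr and Tgfa windows held neither a cAMP response element nor a TATA box and had their nearest GC box 9 and 15 bases before the start. Errfi1 has a second listed start, upstream of the one shown, whose window held none of the 4 motifs. These are matches of letters and were not tested as sites. No window was read for Ereg, Erbb3, Nrg1 or Hbegf.

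The level of each gene in the 24 libraries is plotted by line.

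**Figure D1:**
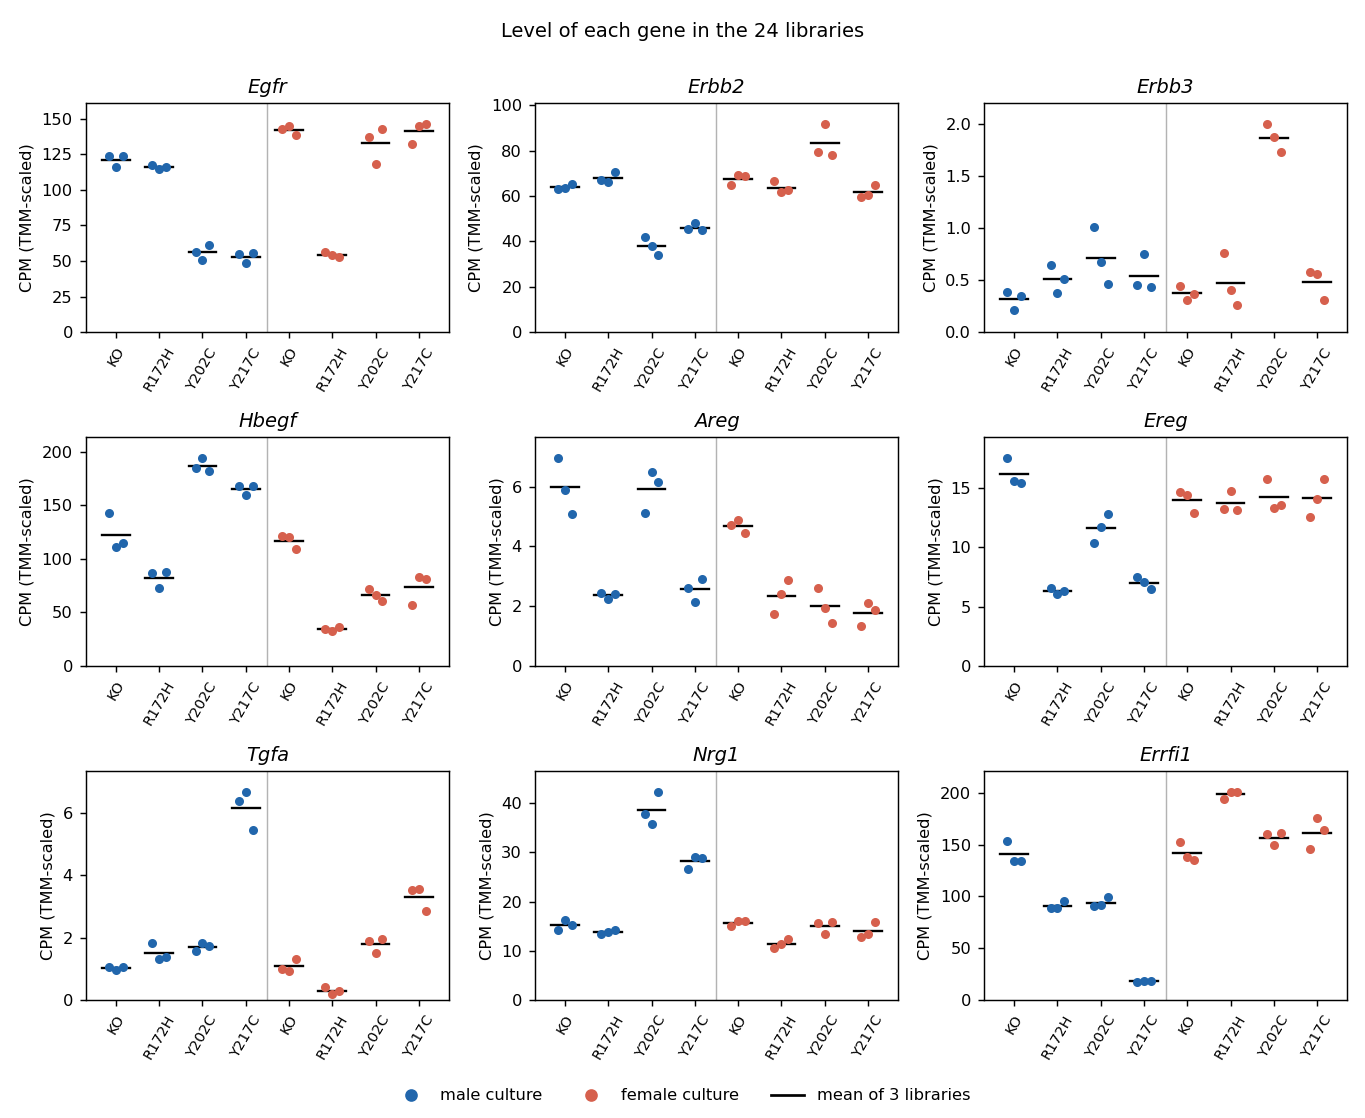
CPM after TMM scaling (y axis, from 0) of the 9 genes in each library, by genotype (x axis), with points for libraries, black bars for the mean of 3 libraries, and colors for the male (blue) and female (red) culture. Errfi1 in male p53 Y217C sits at 16.9 to 18.6 CPM, below every other library, and Tgfa in the same line at 5.44 to 6.66 CPM, above every other library.

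Per kilobase of merged exons, which allows genes to be compared, Errfi1 had the highest mean level over the 8 lines at 34.98, followed by Hbegf at 21.9, Erbb2 at 11.8 and Egfr at 9.01 CPM per kilobase. Ereg (2.94), Areg (2.84) and Nrg1 (1.84) formed a middle group whose order changed to Nrg1, Ereg and Areg when the longest annotated transcript was used as the length. Tgfa (0.33) and Erbb3 (0.11 CPM per kilobase) were lowest. Hbegf was thus the most abundant ligand transcript on average, and ErbB3 message was barely present. The widest range over lines was that of Tgfa, 20.9 times between its highest and lowest line mean, and the narrowest that of Erbb2, 2.18 times.

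**Figure D2:**
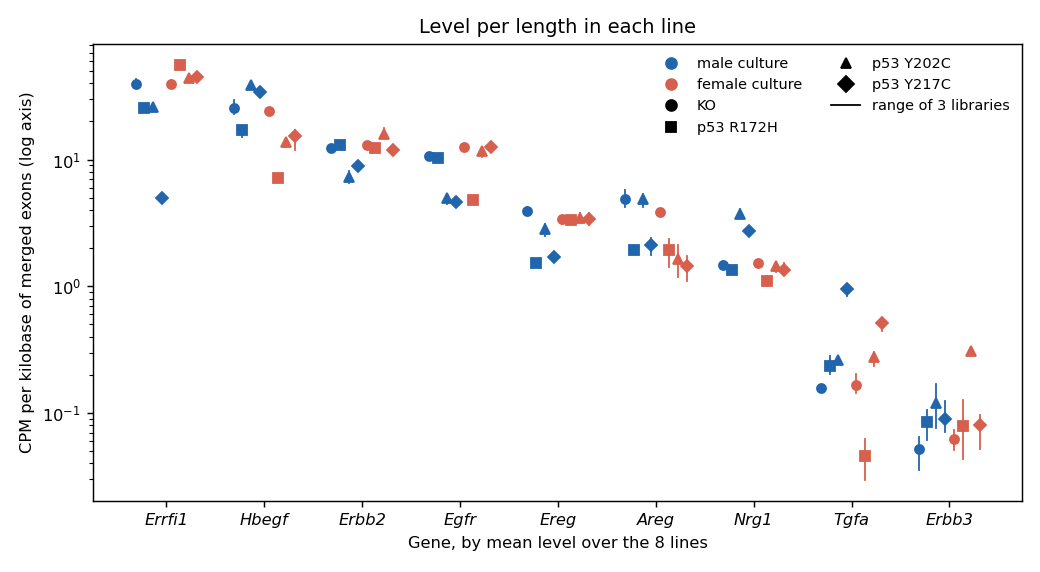
Level per length (CPM per kilobase of merged exons, log axis) of each gene in each line, with symbols for genotype, colors for culture, and vertical lines for the range of 3 libraries. Errfi1, Hbegf, Erbb2 and Egfr lie highest with means of 34.98 to 9.01, and Tgfa and Erbb3 lowest with means of 0.33 and 0.11.

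Each mutant line was compared with the KO line of its culture to ask what the mutant adds to loss of p53. edgeR's quasi-likelihood test was used, with Benjamini-Hochberg adjustment over all 14427 genes and a threshold of 0.05. The 3 mutants of a culture share its KO libraries. Of the 9 genes, 1 was higher and 4 were lower in male p53 R172H, where 20.2% of all genes were higher and 20.5% lower. In male p53 Y202C 4 were higher and 4 lower, against 37.6% and 35.4% of all genes. In male p53 Y217C 3 were higher and 5 lower, against 34.9% and 35.6%. In female p53 R172H 1 was higher and 5 were lower, against 34.4% and 35.3%. In female p53 Y202C 3 were higher and 2 lower, against 34.3% and 34.3%. In female p53 Y217C 2 were higher and 2 lower, against 28.0% and 28.7%. The share of the 9 genes past the threshold was above that of all genes in the 3 male mutants and below it in the 3 female mutants. With so many genes past it, the counts alone are no result about the family, and sizes and directions of single genes are given below. The median log2 difference of the 9 genes ranged from -0.48 in male p53 Y217C to 0.02 in female p53 Y202C, and that of all genes stayed between -0.01 and 0.01.

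**Figure D3:**
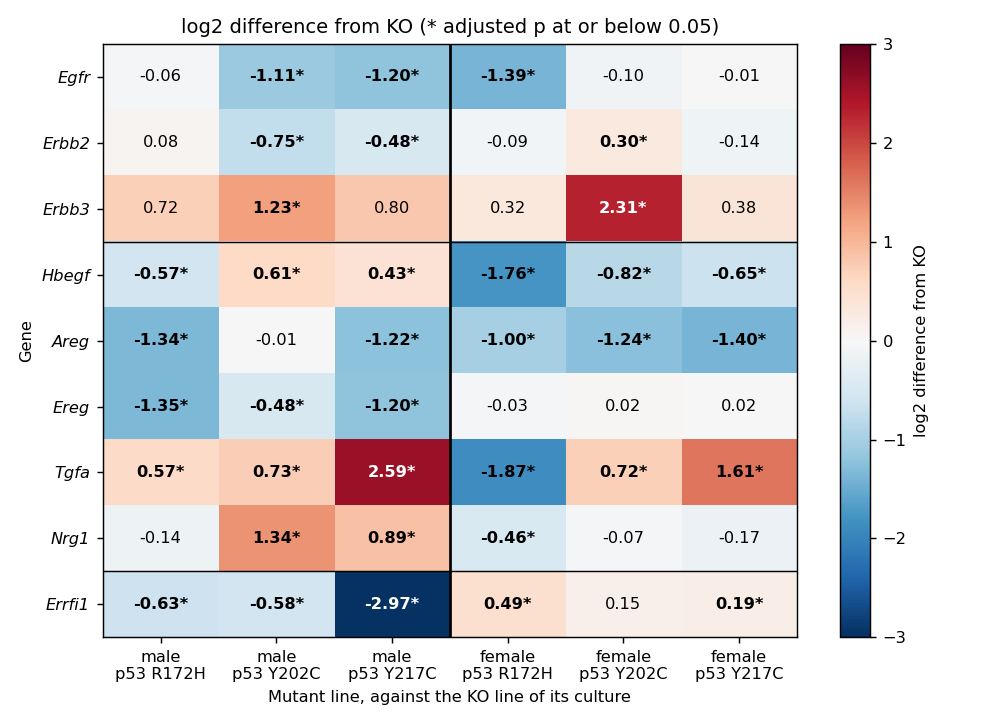
log2 difference from KO (color and printed value) of each gene (rows: receptors, ligands, inhibitor) in each mutant line (columns), with an asterisk where the adjusted p is at or below 0.05. Ereg is lower in the 3 male mutants and within 0.03 of 0 in the 3 female mutants, and Areg is lower in 5 of 6 columns.

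Egfr, the receptor for most of these ligands (chr11:16752203-16918158, + strand), was lower in 3 of the 6 mutant lines, by more than a factor of 2 each time. It stood at 124, 116 and 124 CPM in male KO, at 56.6, 50.4 and 61.1 CPM in male p53 Y202C and at 54.6, 48.3 and 55.4 CPM in male p53 Y217C. It was at 143, 145 and 139 CPM in female KO and at 56.5, 53.9 and 52.8 CPM in female p53 R172H. The 3 low lines did not overlap with any other line and overlapped with each other, while the 5 remaining lines lay between 115 and 146 CPM. The log2 differences were -1.11 ± 0.070 (SE, n = 3 and 3, adjusted p = 6.88e-13) in male p53 Y202C, -1.20 ± 0.070 (adjusted p = 1.83e-13) in male p53 Y217C and -1.39 ± 0.070 (adjusted p = 1.43e-14) in female p53 R172H, all by edgeR. Male p53 R172H (-0.06, adjusted p = 0.518), female p53 Y202C (-0.10, adjusted p = 0.204) and female p53 Y217C (-0.01, adjusted p = 0.922) did not pass. Egfr was thus lower with R172H in the female culture and with both tyrosine mutants in the male culture. Tests of the difference between cultures passed for R172H (1.33 ± 0.097 on the log2 scale, male minus female), Y202C (-1.01 ± 0.097) and Y217C (-1.19 ± 0.097).

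Erbb2, the partner receptor (chr11:98412470-98437716, + strand), changed less and in both directions. It was at 63.2, 63.7 and 65.5 CPM in male KO, at 42.1, 38.1 and 34.1 CPM in male p53 Y202C and at 45.4, 48.0 and 44.9 CPM in male p53 Y217C. These 2 male mutants lay below all other lines, with log2 differences of -0.75 ± 0.066 (adjusted p = 3.87e-10, edgeR) and -0.48 ± 0.066 (adjusted p = 7.98e-07, edgeR). Female p53 Y202C was the highest line, at 79.6, 91.7 and 78.3 CPM against 64.8 to 69.2 CPM in female KO (0.30 ± 0.065, adjusted p = 0.00031, edgeR). The other 5 lines covered 59.5 to 70.4 CPM, and each overlapped with its neighbor in order of level. Male p53 R172H (0.08), female p53 R172H (-0.09) and female p53 Y217C (-0.14) did not pass. Erbb2 overlaps the opposite-strand gene Mien1, and the strand of counting is not given in the sources used here. Mien1 stood at 2.97 to 5.77 CPM per line. Like Erbb2 it was higher in female p53 Y202C (0.60 ± 0.14, adjusted p = 0.000604, edgeR). It was also higher in male p53 Y217C (0.35, adjusted p = 0.0292, edgeR), where Erbb2 fell, and lower in female p53 Y217C (-0.35, adjusted p = 0.0399, edgeR), and it differed by -0.06 in male p53 Y202C (adjusted p = 0.706, edgeR). Only reads that matched a single gene were counted, and how reads of the overlap were treated is not given.

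Erbb3, the kinase-weak receptor for neuregulins (chr10:128567523-128589652, - strand), was near the limit of these data, with 21 to 135 counts per library. It was highest in female p53 Y202C, at 1.997, 1.87 and 1.73 CPM against 0.44, 0.31 and 0.37 CPM in female KO. No library of another line reached that range. Each gene in the counts exceeded 1 CPM in at least 3 libraries, and without TMM factors Erbb3 did so in this line only. Its presence in the counts thus rests on the line where it was highest, so its rank and difference there are not independent of that filter. The log2 difference was 2.31 ± 0.35 (adjusted p = 3.79e-06, edgeR). In male p53 Y202C it was 1.23 ± 0.37 (adjusted p = 0.0045, edgeR), with libraries spread from 0.46 to 1.01 CPM, and without the first replicate of that line it was 0.87 (adjusted p = 0.0592, edgeR). The other 4 mutants had positive differences of 0.32 to 0.80 that did not pass with edgeR, the largest being that of male p53 Y217C (adjusted p = 0.0613), which did pass with limma (adjusted p = 0.0249), with total counts (0.0356), with only the lines compared (0.0453) and with the replicate block (0.039). Defining markers of the oligodendrocyte and Schwann lineages, cells that use ErbB3, were absent from the counts (Olig1, Olig2 and Sox10). The 4 listed genes of that marker list summed to 383 CPM in female p53 Y202C and 288 CPM in female KO. Of these, Pdgfra was at 144 against 3.09 CPM and Cspg4 at 232 against 279.9 CPM. Pdgfra was also at 165 CPM in female p53 R172H, where Erbb3 did not pass. The part of these markers in the Erbb3 difference was not tested.

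The ligand Hbegf, which binds EGFR, ErbB4 and heparin (chr18:36504927-36515805, - strand), passed the test in all 6 mutants, higher in 2 and lower in 4. It was at 143, 111 and 115 CPM in male KO and rose to 185, 194 and 182 CPM in male p53 Y202C and to 168, 159.9 and 167 CPM in male p53 Y217C. Male p53 R172H was lower, at 87.2, 72.3 and 87.5 CPM. In the female culture all mutants were lower than the KO line, which was at 121, 120.1 and 109 CPM. Female p53 R172H was lowest, at 34.2, 32.3 and 36.5 CPM, and the next library of another line was at 57.4 CPM. Female p53 Y202C (71.4, 65.9 and 60.8 CPM) and female p53 Y217C (57.4, 83.4 and 81.5 CPM) overlapped with each other. The log2 differences in the male lines were -0.57 ± 0.11 for R172H (adjusted p = 0.000168), 0.61 ± 0.11 for Y202C (adjusted p = 2.03e-05) and 0.43 ± 0.11 for Y217C (adjusted p = 0.00105), by edgeR. In the female lines they were -1.76 ± 0.11 (adjusted p = 1.09e-12), -0.82 ± 0.11 (adjusted p = 4.86e-07) and -0.65 ± 0.11 (adjusted p = 1.8e-05), by edgeR. The opposite directions in Y202C and Y217C were past the threshold in each culture, and the differences between cultures were 1.43 ± 0.15 and 1.08 ± 0.15 on the log2 scale.

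Areg and Ereg encode amphiregulin, a ligand of EGFR alone, and epiregulin, a ligand of EGFR and ErbB4. The genes are neighbors on the + strand of chromosome 5 (Ereg at chr5:91074622-91093646, Areg at chr5:91139599-91148432), with starts 65.0 kb apart, and Epgn, another ligand gene of this cluster, was not among the counts. Both were lower in male p53 R172H and male p53 Y217C, by similar amounts. In male p53 Y202C Ereg was lower while Areg did not pass, and in the 3 female mutants Areg was lower while Ereg did not pass.

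Areg was lower than KO in 5 of 6 mutants. It was at 6.95, 5.90 and 5.09 CPM in male KO, at 2.43, 2.25 and 2.39 CPM in male p53 R172H and at 2.61, 2.15 and 2.92 CPM in male p53 Y217C. Female KO was at 4.72, 4.87 and 4.44 CPM, above the 3 female mutants, which covered 1.33 to 2.86 CPM. Male p53 Y202C was the exception, at 5.11, 6.49 and 6.15 CPM, overlapping with male KO (-0.01 ± 0.19, adjusted p = 0.946, edgeR). Across the 5 lower lines the log2 difference ran from -1.40 ± 0.20 in female p53 Y217C (adjusted p = 2.52e-06, edgeR) to -0.997 ± 0.19 in female p53 R172H (adjusted p = 7.22e-05, edgeR). In order of level each of the 5 overlapped with the next. The effect differed between cultures for Y202C (1.23 ± 0.27, adjusted p = 0.000359, edgeR), but a difference was not detected for R172H (-0.34 ± 0.27) or Y217C (0.18 ± 0.28).

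Ereg was lower in the 3 male mutants, and in the 3 female mutants its libraries overlapped with KO. It was at 17.5, 15.6 and 15.4 CPM in male KO, at 6.61, 6.06 and 6.29 CPM in male p53 R172H, at 10.3, 11.7 and 12.8 CPM in male p53 Y202C and at 7.51, 7.11 and 6.45 CPM in male p53 Y217C. No male mutant library reached the male KO range. The 4 female lines all lay between 12.6 and 15.8 CPM and overlapped. The male log2 differences were -1.35 ± 0.098 (adjusted p = 1.07e-10), -0.48 ± 0.095 (adjusted p = 8.39e-05) and -1.20 ± 0.097 (adjusted p = 9.25e-11) for R172H, Y202C and Y217C, by edgeR. The female ones were -0.03, 0.02 and 0.02 with standard errors of 0.094 to 0.095. Tests of the difference between cultures gave -1.33 ± 0.14 (adjusted p = 1.12e-08), -0.50 ± 0.13 (adjusted p = 0.00203) and -1.22 ± 0.14 (adjusted p = 4.43e-08), by edgeR.

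Tgfa, encoding the EGFR ligand TGF-alpha (chr6:86195223-86275719, + strand), was higher in 5 mutants and lower in 1, from a low starting level. In male KO it was at 1.06, 0.95 and 1.07 CPM and in male p53 Y217C at 6.39, 6.66 and 5.44 CPM, a 6.01-fold difference. In female KO it was at 0.99, 0.94 and 1.31 CPM and in female p53 Y217C at 3.52, 3.56 and 2.87 CPM. Y217C thus gave the 2 highest lines, and neither overlapped with any other line. Female p53 R172H was the lowest, at 0.40, 0.19 and 0.29 CPM (18 to 38 counts), and also stood clear of the rest. The log2 differences were 2.59 ± 0.19 in male p53 Y217C (adjusted p = 1.35e-11), 1.61 ± 0.19 in female p53 Y217C (adjusted p = 1.33e-07) and -1.87 ± 0.22 in female p53 R172H (adjusted p = 7.46e-08), by edgeR. With Y202C, Tgfa was higher in both cultures, by 0.73 ± 0.19 (male, adjusted p = 0.00148) and 0.72 ± 0.19 (female, adjusted p = 0.00227), by edgeR, and the difference between them was 0.02 ± 0.27. The smallest rise, 0.57 ± 0.19 in male p53 R172H (adjusted p = 0.0207, edgeR), depended on single libraries. It was 0.51 (adjusted p = 0.0752, edgeR) without the second replicate of male KO and 0.40 (adjusted p = 0.142, edgeR) without the first of male p53 R172H.

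Nrg1, whose neuregulins bind ErbB3 and ErbB4 rather than EGFR (chr8:31814551-32884029, - strand), was raised in 2 male mutants. It was at 14.2, 16.3 and 15.2 CPM in male KO, at 37.8, 35.7 and 42.2 CPM in male p53 Y202C and at 26.7, 29.1 and 28.8 CPM in male p53 Y217C. Every other library of the series lay between 10.48 and 16.3 CPM. The log2 differences were 1.34 ± 0.084 (adjusted p = 6.88e-13, edgeR) and 0.89 ± 0.084 (adjusted p = 1.47e-09, edgeR). Female p53 R172H was lower, at 10.48, 11.5 and 12.4 CPM against 15.1, 16.02 and 16.1 CPM in female KO (-0.46 ± 0.085, adjusted p = 4.39e-05, edgeR). Male p53 R172H, female p53 Y202C and female p53 Y217C differed from KO by -0.17 to -0.07 and did not pass. Without replicate 3 of female p53 Y217C, the difference of that line was -0.26 and did pass (adjusted p = 0.0161, edgeR). The opposite-strand RNA Gm26578 overlaps Nrg1 and was also higher in male p53 Y202C (1.16 ± 0.092) and male p53 Y217C (0.44 ± 0.093). Only reads that matched a single gene were counted. Without a stated strand of counting, how reads of this overlap were treated is not known.

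Errfi1, the inhibitor of the receptor kinase (chr4:150853919-150868892, + strand), showed the largest difference of the set. It was at 154, 134 and 134 CPM in male KO and at 16.9, 18.2 and 18.6 CPM in male p53 Y217C, 7.85-fold lower, with a log2 difference of -2.97 ± 0.073 (adjusted p = 1.77e-20, edgeR). No other line had a library below 88.5 CPM. Male p53 R172H (88.5, 88.9 and 95.9 CPM) and male p53 Y202C (90.8, 92.1 and 99.1 CPM) overlapped with each other and lay below male KO, with differences of -0.63 ± 0.067 (adjusted p = 7.53e-08) and -0.58 ± 0.067 (adjusted p = 3.31e-08), by edgeR. In the female culture the direction was the other way. Female KO was at 152, 138 and 135 CPM and female p53 R172H at 194, 201 and 201 CPM (0.49 ± 0.066, adjusted p = 6.39e-07, edgeR). Female p53 Y217C was at 145, 175 and 164 CPM, overlapping with KO, and its difference of 0.19 ± 0.066 (adjusted p = 0.0179, edgeR) missed the threshold in 4 of 6 fits that left out a library. It was 0.17 (adjusted p = 0.0659, edgeR) and 0.16 (adjusted p = 0.085, edgeR) without replicate 2 or 3 of female KO, and 0.13 (adjusted p = 0.134, edgeR) and 0.18 (adjusted p = 0.0505, edgeR) without replicate 2 or 3 of female p53 Y217C. Female p53 Y202C was at 160.1, 149 and 161 CPM (0.15 ± 0.066, adjusted p = 0.0546, edgeR), a difference that did pass with limma (adjusted p = 0.00555), DESeq2 (0.0496), total counts (0.00547) and upper-quartile factors (0.0143). The effects differed between cultures by -1.11 ± 0.094, -0.73 ± 0.094 and -3.16 ± 0.098 on the log2 scale for R172H, Y202C and Y217C.

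Across the 27 tests of a difference between the male and the female effect, 20 passed the threshold. By mutation these were 6 of 9 genes for R172H, where 58.0% of all genes passed, 7 for Y202C against 68.0%, and 7 for Y217C against 54.8%. In 11 of the 20 the male and female effects had opposite signs, and in 6 of those both effects were themselves past the threshold, which makes 55% and 30% of the 20. Over all genes and the 3 mutations, 56.0% of the tests past the threshold had opposite signs and 26.1% had opposite signs with both effects past it, so these shares were near those of all genes. The 6 were Tgfa and Errfi1 for R172H, Erbb2 and Hbegf for Y202C, and Hbegf and Errfi1 for Y217C. Of their effects, Tgfa in male p53 R172H and Errfi1 in female p53 Y217C (0.19) lost their call in some fits without a library, as given above. Errfi1 in female p53 R172H (0.49), Erbb2 in female p53 Y202C (0.30) and Hbegf in male p53 Y217C (0.43) were small on the log2 scale. The starting points were closer. Between male and female KO, 1 gene passed, Egfr, which was 0.23 ± 0.068 lower in the male KO on the log2 scale (adjusted p = 0.0115, edgeR), where 31.1% of all genes passed. Without the second replicate of male KO that difference was -0.20 (adjusted p = 0.0634, edgeR), and by limma 3 genes passed.

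**Figure D4:**
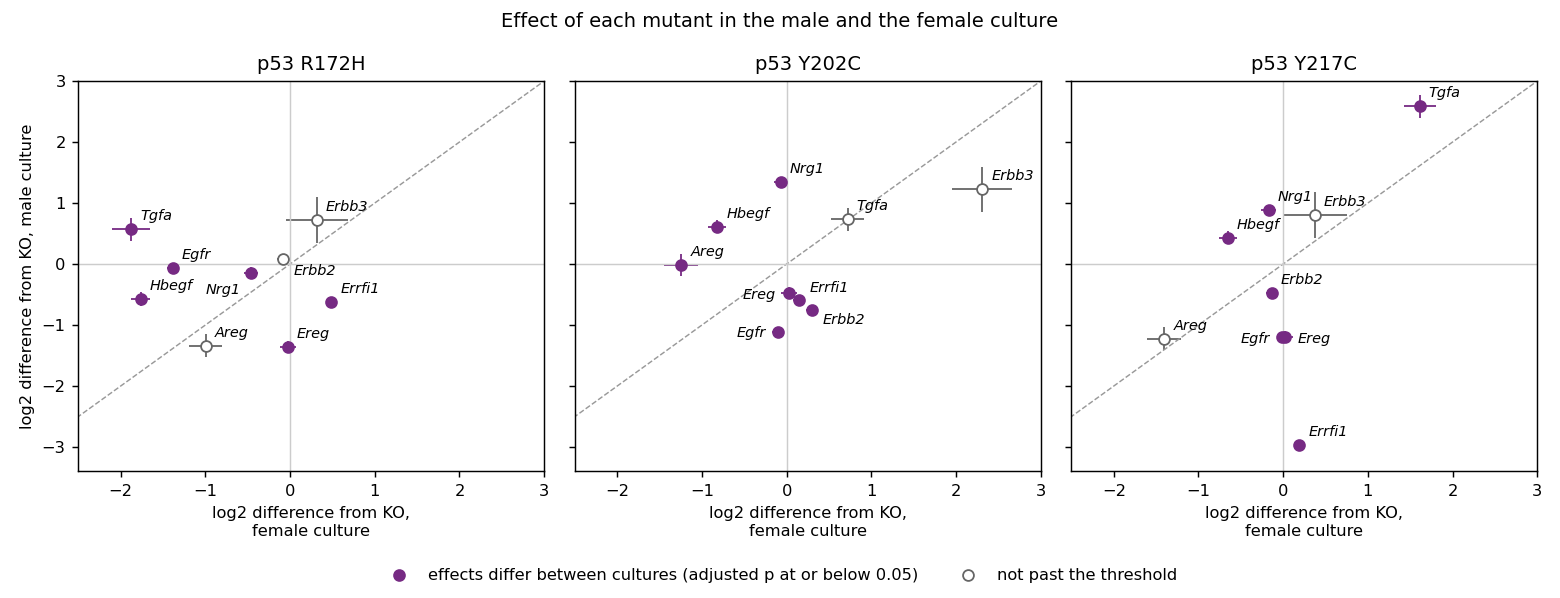
log2 difference from KO in the female culture (x axis) and the male culture (y axis) of each gene for each mutation, with bars for 1 standard error, filled points where the effects differ between cultures at an adjusted p at or below 0.05, and a dashed line of equal effects. Errfi1 lies below the line and Hbegf above it in all 3 panels, and Areg lies off the line past the threshold for Y202C.

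Read by line, female p53 R172H had less Egfr, Hbegf, Areg, Tgfa and Nrg1 and more Errfi1, that is, 1 receptor and 4 ligands lower and the inhibitor higher. In that line the fibroblast markers Dcn and Lum were at 105 and 18.2 CPM against 2.20 and 0.14 CPM in female KO. The astrocyte markers summed to 640 CPM against 356 in female KO. The glutamate transporter Slc1a3 was at 281 against 18.7 CPM, Sox9 at 183 against 113 CPM and Aldh1l1 at 14.9 against 0.20 CPM. Gfap went the other way, at 0.048 against 0.12 CPM, and the list holds further markers whose single levels are not given here. Male p53 Y217C had less Egfr, Erbb2, Areg, Ereg and Errfi1 and more Hbegf, Tgfa and Nrg1. There the astrocyte markers summed to 513 CPM against 355 in male KO. Slc1a3 was at 106 CPM against 12.2 and Aldh1l1 at 56.6 against 0.63 CPM, while Sox9 was at 150 against 151 CPM. Male p53 Y202C had less Egfr, Erbb2, Ereg and Errfi1 and more Erbb3, Hbegf, Tgfa and Nrg1. Its astrocyte markers summed to 200.5 CPM against 355 in male KO, with Sox9 at 80.0 against 151 CPM, Slc1a3 at 6.69 against 12.2 CPM and Gfap at 0.059 against 0.26 CPM, while Aldh1l1 was at 28.4 against 0.63 CPM. Col1a1 was at 3361 CPM against 17294. Of the other fibroblast or pericyte markers, Dcn went the other way, at 4.86 against 2.70 CPM. Pdgfrb (260 against 267 CPM) and Lum (0.17 against 0.15 CPM) had overlapping libraries. The part of these marker differences in the results was not tested.

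Over the 8 line means, as a description of points that share cultures and KO lines, Pearson's r between log2 levels of pairs of the 9 genes ran from -0.87 (Erbb2 and Nrg1) to 0.83 (Hbegf and Nrg1). Egfr and Erbb2 had r = 0.73, and Areg and Ereg r = 0.24. The genes of the whole table most like each were, over the same 8 means, Zic1, Crmp1 and Fam171a1 for Egfr (r of 0.977 to 0.982), Tcf7l1, Cdc42ep2 and Gcnt4 for Erbb2 (0.980 to 0.982), Cog5 and Gm13563 for Erbb3 (0.987 and 0.959) and Metap2, D930016D06Rik and Acsbg1 for Hbegf (0.964 to 0.978). For Areg they were Pfdn2, Bcl6b and Cul3 (0.961 to 0.974), for Ereg Med9, Yme1l1 and Ttc26 (0.905 to 0.969) and for Tgfa Msto1, Ubr7 and Plcd3 (0.955 to 0.966). For Nrg1 they were 1700021F05Rik, Entpd5 and Lin52 (0.988 to 0.989), and for Errfi1 Il27ra, Ptgs1 and C1qtnf12 (0.968 to 0.985).

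The rest of the family was thin in these cells, apart from Nrg2 in male p53 Y202C and male p53 Y217C. Of 7 further genes, Egf, Btc and Nrg2 were counted, and Erbb4, Epgn, Nrg3 and Nrg4 were not listed. Nrg2, a neuregulin, was, like Nrg1, higher in male p53 Y202C and male p53 Y217C. It was at 4.20 to 4.69 CPM in male KO and rose to 24.5 to 28.5 CPM in male p53 Y202C (2.62 ± 0.10, adjusted p = 1.57e-16, edgeR) and to 22.2 to 26.6 CPM in male p53 Y217C (2.48 ± 0.10, adjusted p = 3.58e-16, edgeR). It fell in female p53 Y202C, from 1.99 to 2.51 CPM in KO to 0.26 to 0.40 CPM (-2.82 ± 0.16, adjusted p = 2.76e-13, edgeR). Smaller falls passed in female p53 R172H (-0.90 ± 0.12, adjusted p = 4.7e-07, edgeR) and male p53 R172H (-0.27 ± 0.11, adjusted p = 0.0449, edgeR). Btc, encoding betacellulin, was higher in 5 mutants by 0.65 to 1.78 on the log2 scale, the exception being male p53 R172H (-0.49, adjusted p = 0.116, edgeR), with line means of 2.22 CPM or less. Egf stayed at 1.85 CPM or less in every library. It was lower in male p53 Y202C (-0.89 ± 0.24, adjusted p = 0.00202, edgeR) and higher in female p53 Y202C (0.54). The libraries of female p53 Y202C were at 0.94, 1.64 and 1.85 CPM. The lowest lay within the female KO range of 0.92 to 1.08 CPM.

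For the lists that follow, the shares of all genes past the threshold in either direction were 40.7%, 73.0% and 70.5% for R172H, Y202C and Y217C in the male culture and 69.7%, 68.6% and 56.7% in the female culture, and list shares are given in the same order.

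Of 8 genes for ligand shedding, those of the proteases and their iRhom cofactors, 3 were higher and 1 lower in male p53 R172H, 3 and 4 in male p53 Y202C, 1 and 6 in male p53 Y217C, 3 and 5 in female p53 R172H, and 2 and 4 in both female p53 Y202C and female p53 Y217C, or 50%, 87.5% and 87.5% in the male and 100%, 75% and 75% in the female mutants. Adam19, a protease that cleaves neuregulin precursors, was lower in all 6. Its log2 differences were -0.20, -1.70 and -2.82 for R172H, Y202C and Y217C in the male culture and -1.40, -1.55 and -1.302 in the female culture. In male p53 Y217C it went from 197 to 207 CPM down to 26.4 to 29.7 CPM (adjusted p = 2.29e-21, edgeR). Rhbdf2, the iRhom2 cofactor of ADAM17, passed in all 6 with mixed directions. Its log2 differences were 0.48, 0.31 and -1.78 in the male and 1.48, -1.76 and 0.88 in the female mutants.

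Of 27 adaptors and kinases of the RAS-ERK and PI3K-AKT branches, 9 were higher and 2 lower in male p53 R172H, 15 and 6 in male p53 Y202C, 9 and 11 in male p53 Y217C, 9 and 11 in female p53 R172H, 12 and 10 in female p53 Y202C, and 10 and 6 in female p53 Y217C. These shares were 40.7%, 77.8% and 74.1% in the male and 74.1%, 81.5% and 59.3% in the female mutants. The adaptor Gab2 had the largest rise in each male mutant, with log2 differences of 0.41, 1.83 and 1.06 for R172H, Y202C and Y217C. In the female mutants it was higher for Y202C (0.77) and Y217C (0.44) and did not pass for R172H (-0.15). Stat3 had the largest fall in each male mutant, with log2 differences of -0.16, -0.57 and -1.08. In the female culture Stat3 was higher for R172H (0.47) and Y202C (0.57) and lower for Y217C (-0.19).

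Of 18 genes for receptor downregulation and ERK feedback, 3 were higher and 8 lower in male p53 R172H, 8 and 5 in male p53 Y202C, 4 and 8 in male p53 Y217C, 5 and 5 in female p53 R172H, 6 and 9 in female p53 Y202C, and 3 and 13 in female p53 Y217C. These shares were 61.1%, 72.2% and 66.7% in the male and 55.6%, 83.3% and 88.9% in the female mutants. The ERK phosphatase gene Dusp4 was lower in male p53 R172H (-1.47 ± 0.12), female p53 Y202C (-0.36) and female p53 Y217C (-2.56 ± 0.12), higher in male p53 Y202C (0.35), and did not pass in male p53 Y217C (-0.10) or female p53 R172H (0.05). The ERK inhibitor gene Spry1 was higher in 5 mutants, by 0.44 in female p53 Y202C to 1.64 ± 0.061 in female p53 R172H, and lower in male p53 Y217C (-1.03 ± 0.064), the line with the lowest Errfi1 level. Lrig1, which promotes receptor degradation, was lower in 5 mutants, the exception being male p53 R172H (-0.03). Its log2 differences were -0.95 and -1.01 for Y202C and Y217C in the male culture and -0.98, -1.13 and -0.33 for R172H, Y202C and Y217C in the female culture.

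Of 12 genes used as transcriptional readouts of ERK, 7 were higher and 3 lower in male p53 R172H, 8 and 4 in male p53 Y202C, and 5 and 2 in male p53 Y217C. In each of the 3 female mutants 2 were higher and 8 lower. These shares were 83.3%, 100% and 58.3% in the male and 83.3%, 83.3% and 83.3% in the female mutants. The median log2 difference was 0.22, 0.70 and 0.03 in the male and -0.73, -0.71 and -0.28 in the female mutants. The list is uneven. Egr1, an immediate early transcription factor, was higher in all 6 mutants, by 0.94, 0.80 and 0.98 in the male and 1.48, 0.65 and 1.22 in the female culture for R172H, Y202C and Y217C. The cyclin gene Ccnd1 was higher in the 3 male mutants, by 0.30, 1.66 and 1.33, and lower in the 3 female mutants, with log2 differences of -0.45, -1.16 and -0.18. In male p53 Y202C its mean was 730 CPM against 231 in KO. Fos was higher in male p53 R172H (1.17 ± 0.14) and in the 3 female mutants (1.92, 0.75 and 0.34, the last with an adjusted p of 0.0499 by edgeR), lower in male p53 Y202C (-0.71), and did not pass in male p53 Y217C (-0.16). Epha4 was lower in male p53 R172H (-0.18), male p53 Y202C (-1.69) and the 3 female mutants (-1.23, -0.69 and -1.32), and did not pass in male p53 Y217C (0.08). The counts by list are plotted beside those of all genes.

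**Figure D5:**
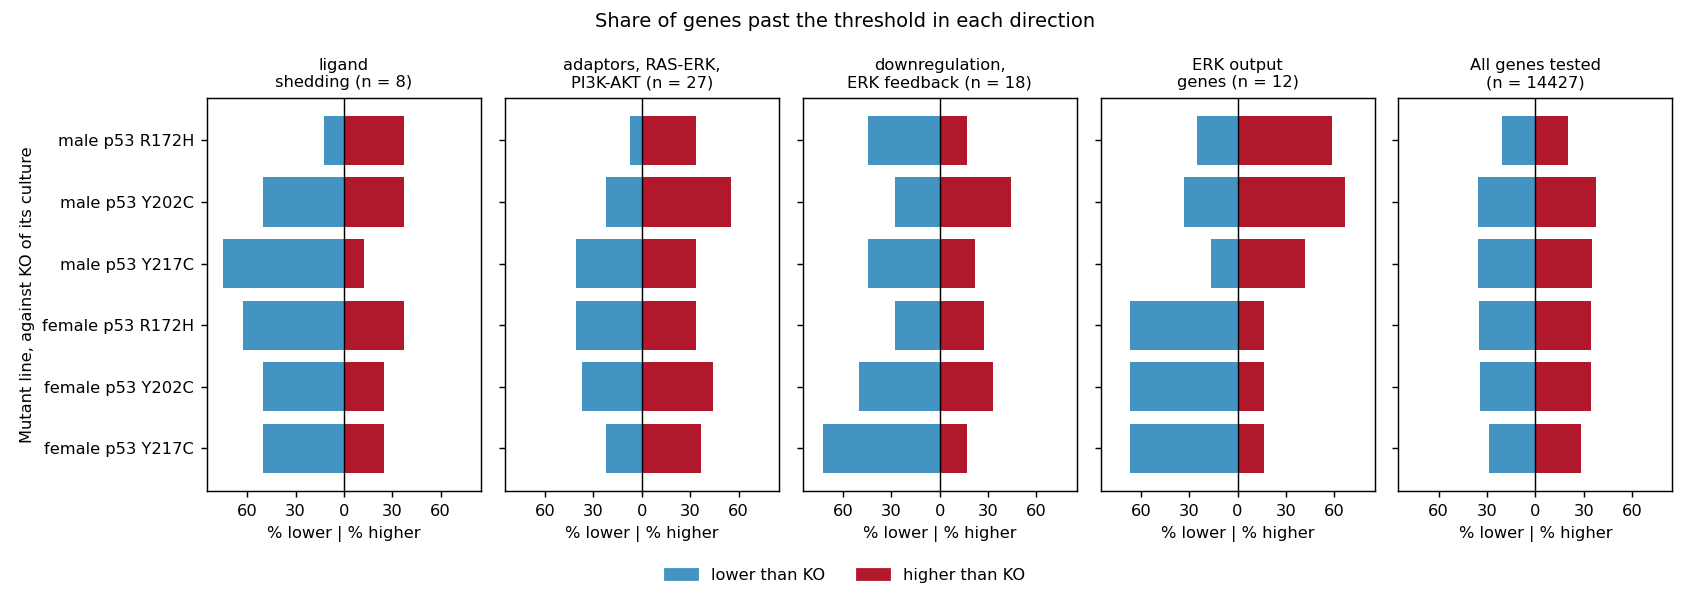
Percent of genes past the threshold (x axis), lower than KO to the left in blue and higher to the right in red, for each mutant line (rows) in 4 pathway lists and in all 14427 genes tested. Of the 12 ERK readout genes, 8 are lower in each female mutant, while 7, 8 and 5 are higher in the male mutants.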

How the data were processed

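RNA-seq was analyzed in 24 libraries of 8 lines with 3 replicates each, grouped by the sample labels. The authors aligned reads with STAR 2.5.1a (per the submitters' processing notes) to Ensembl release 76 and assigned them to genes with featureCounts, keeping reads that aligned once and matched a single gene. The deposited values are raw counts per gene, without normalization, for 14427 genes. Each gene exceeded 1 CPM in at least 3 libraries, so low genes had been removed before deposit, and the filter used here (above 1 CPM in at least 2 libraries) removed 0. Symbols, positions and lengths came from GENCODE M21 on GRCm38, which named 14350 genes. The strand of counting is not given in the sources used here.

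From the counts, CPM were computed with TMM factors (0.958 to 1.07) in edgeR 4.0.16 (R 4.3.3), and all libraries entered a single quasi-likelihood fit in which every line had its own mean, with Benjamini-Hochberg adjustment over all genes and a threshold of 0.05. Total counts per library ranged from 52787288 to 136503809. Replicates of a line were compared by a chi-square test of their counts, which was at least 6.76 per gene, so none was a repeat of another. Intervals are standard errors of the fit over 3 replicates per line.

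The genes, lists and tests were chosen with earlier results of these data known. All 9 family genes were reported, together with Trp53 and marker genes. From each other list and comparison, the genes with the largest rise and fall past the threshold could be named if the higher line had 10 or more counts in each library, and not all were. The overlapping genes Mien1 and Gm26578 were added because they overlap a family gene. For each family gene, the 3 genes with the highest Pearson's r over the 8 line means of log2 CPM (prior count 2) were named. A few genes that these rules cover are not reported here. Alternatives were limma 3.58.1 with voomWithQualityWeights, DESeq2 1.42.0, other scalings, filters and thresholds, the replicate number as a block, models restricted to the lines in a comparison, another gene length, and leaving out each replicate.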

Additional observations from a re-analysis of the deposited data

Results flagged for a closer look

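The effects of a mutation in the male and the female culture differed past the threshold in 20 of 27 tests of that difference by edgeR. Values are the male minus the female log2 effect. For p53 R172H they were 1.33 for Egfr, 1.19 for Hbegf, -1.33 for Ereg, 2.44 for Tgfa, 0.32 for Nrg1 and -1.11 for Errfi1. For p53 Y202C they were -1.01 for Egfr, -1.05 for Erbb2, 1.43 for Hbegf, 1.23 for Areg, -0.50 for Ereg, 1.41 for Nrg1 and -0.73 for Errfi1. For p53 Y217C they were -1.19 for Egfr, -0.34 for Erbb2, 1.08 for Hbegf, -1.22 for Ereg, 0.97 for Tgfa, 1.06 for Nrg1 and -3.16 for Errfi1. Hbegf had a positive and Errfi1 and Ereg a negative value for all 3 mutations, while Egfr was positive for R172H and negative for both tyrosine mutants. All tests within a culture share its KO libraries, and each culture is a single pool of pups. With 3 libraries per line, single libraries far from the rest were not tested for.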

How the results depend on the processing

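The 57 results past the threshold gave 513 values under alternatives that used all libraries, and all kept direction and call. Of 462 values without a replicate, 449 did. The setting without a filter repeated the main fit, because the filter removed 0 genes. Stricter thresholds were not part of the 513. Above an absolute log2 difference of 0.5, genes past the threshold went from 8 to 6 in male p53 Y217C and from 6 to 4 in female p53 R172H. The 13 lost calls concerned Tgfa in male p53 R172H, Erbb3 in male p53 Y202C, Errfi1 in female p53 Y217C, Egfr between the KO lines, and the Nrg1 culture difference for R172H, which was 0.26 to 0.38 and missed the threshold in 5 of 12 such fits (without male KO replicate 1, male p53 R172H replicate 3, female KO replicates 2 and 3, or female p53 R172H replicate 1). Values under the threshold passed it in some alternatives. Errfi1 in female p53 Y202C and Erbb3 in male p53 Y217C did so as given above. The Erbb3 culture difference for Y202C did so with total counts, upper-quartile factors, only the lines compared and the block. Erbb2 in female p53 Y217C and its culture difference for R172H did so with limma and with only the lines compared. Nrg1 in female p53 Y217C passed without replicate 3 of that line. Errfi1 in female p53 Y202C passed without replicate 1 of female KO or replicate 2 of female p53 Y202C. The Erbb3 culture difference for Y202C passed without replicate 2 of male KO or replicate 1 of male p53 Y202C. The number of the 9 genes past the threshold moved by over 1.5 times only between the KO lines, from 1 to 3 with limma or with only the lines compared, to 2 with total counts or upper-quartile factors, to 0 at an adjusted p of 0.01 or above an absolute log2 difference of 0.5, and to 0 without male KO replicate 2 (0 to 1 over those fits). With the replicate block the numbers were 5, 8, 9, 6, 5 and 4 for the mutants (males R172H, Y202C and Y217C, then females), 6, 8 and 7 for the culture differences and 1 between the KO lines. The block lost no call, and Erbb3 passed in 2 more comparisons. Correlations of same-number deviations ran from -0.172 to 0.245, so the numbers were not taken to pair the libraries.

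The signs that reversed were those of values under the threshold, and the cause was not tested. Areg in male p53 Y202C was 0.070 with limma and -0.12 to 0.10 without single replicates. Egfr in female p53 Y217C was 0.018 with limma, 0.069 with total counts, 0.0083 with upper-quartile factors and -0.035 to 0.035 without single replicates. The Tgfa culture difference for Y202C was -0.028, -0.060 and -0.12 under the same 3 settings and -0.15 to 0.10 without single replicates. Between the KO lines, Hbegf was -0.0057 with limma and -0.049 to 0.14 without single replicates, Errfi1 was 0.030 with total counts, 0.026 with upper-quartile factors and -0.078 to 0.046, and Tgfa was -0.17 to 0.086. Nrg1 in female p53 Y202C was 0.0031 with total counts and -0.10 to 0.0069, and Erbb3 in female p53 R172H was -0.20 to 0.64. Ereg was -0.083 to 0.0081, -0.056 to 0.076 and -0.067 to 0.093 in female p53 R172H, Y202C and Y217C. Line means moved by 0.965 to 1.07 times with total counts. Erbb3, with 21 to 135 counts per library, had the widest errors, and small differences in it were not detectable at this depth.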
